A study of Mus musculus with 12 samples.

Results

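The neurofilament and axonal cytoskeleton genes examined here are 9 genes chosen by symbol, Nefl, Nefm, Nefh, Ina, Prph, Tubb3, Stmn2, Map1b and Mapt, and all 9 were found among the 25655 genes of the deposited tables. They were measured by total RNA sequencing of the whole retina of C57BL/6J mice 8 to 10 weeks old. In every mouse the left optic nerve was crushed for 5 s (ONC), and the retina was collected 2 days after injury. A single intravitreal injection after ONC held PBS, fluvastatin (a statin, which inhibits HMG-CoA reductase), matrix-bound nanovesicles (MBV, prepared from porcine urinary bladder), or MBV and fluvastatin together, with 3 samples in each group. All groups were crushed, so these data hold no uninjured retina. For PBS, fluvastatin and MBV the count columns name their libraries, and each library held 21349516 to 30992040 gene counts. The combined treatment was not analysed here, because the 6 count columns of its table name neither a library nor a group.

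Neurofilaments are the intermediate filaments of axons. They are built from the light, medium and heavy chains with alpha-internexin or peripherin, and they set the calibre of the axon. Microtubules run beside them as tracks for transport, and stathmins and microtubule-associated proteins govern how stable these tracks are. In the retina such genes are known as strongly expressed in retinal ganglion cells (RGCs), the neurons whose axons form the optic nerve, although horizontal and some amacrine cells express neurofilament genes too. In RNA from a whole retina, fewer cells of a type and less RNA per cell cannot be told apart.

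With fluvastatin, 7 of the 9 genes were higher than with PBS, and with MBV 5 of the 9 were higher, while none was lower. Nefh, the heavy neurofilament chain, showed the largest difference of the 9 in both, at 2.10-fold and 1.92-fold. Map1b and Mapt, which encode microtubule-associated proteins, were 1.33-fold to 1.38-fold higher in both. Nefl, the light chain, passed the test in neither, and no gene of the 9 passed it between MBV and fluvastatin. A gene is said here to pass at a false discovery rate (FDR) under 0.05 in the quasi-likelihood test of edgeR, with p-values adjusted by the Benjamini-Hochberg method over all genes with a count.

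The share of all genes that passed was large in both comparisons with PBS. It was 19.6% of 18818 genes for fluvastatin, with 9.36% higher, and 26.1% of 18897 genes for MBV, with 12% higher. Between MBV and fluvastatin it was 0.0588% of 18721 genes. The sample labels hold one run of library numbers for PBS and the combined treatment and another for fluvastatin and MBV, so in both comparisons with PBS the treatment and the run cannot be told apart. In both comparisons with PBS the change also moved with the GC content of the transcript. When 10199 genes with a mean of at least 10 CPM (counts scaled to library size) were divided into 5 equal groups by GC content, the median log2 fold change with fluvastatin was -0.15 in the lowest group and 0.14 in the highest. With MBV these medians were -0.17 and 0.13, and between MBV and fluvastatin they were -0.01 and 0.00. The share of genes that were higher than with PBS was 1.81% in the lowest group and 33.0% in the highest with fluvastatin. With MBV these shares were 2.55% and 37.0%. Each comparison was therefore fitted again with a smooth trend in GC content removed from each library (below, the GC correction, chosen after the data were seen). With it 11.9% of genes passed for fluvastatin, with 6.11% higher, and 20.3% for MBV, with 10.1% higher. In that fit 4 of the 9 genes were higher with fluvastatin (Nefh, Stmn2, Map1b and Mapt) and 4 with MBV (Nefh, Tubb3, Map1b and Mapt).

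**Figure D1:**
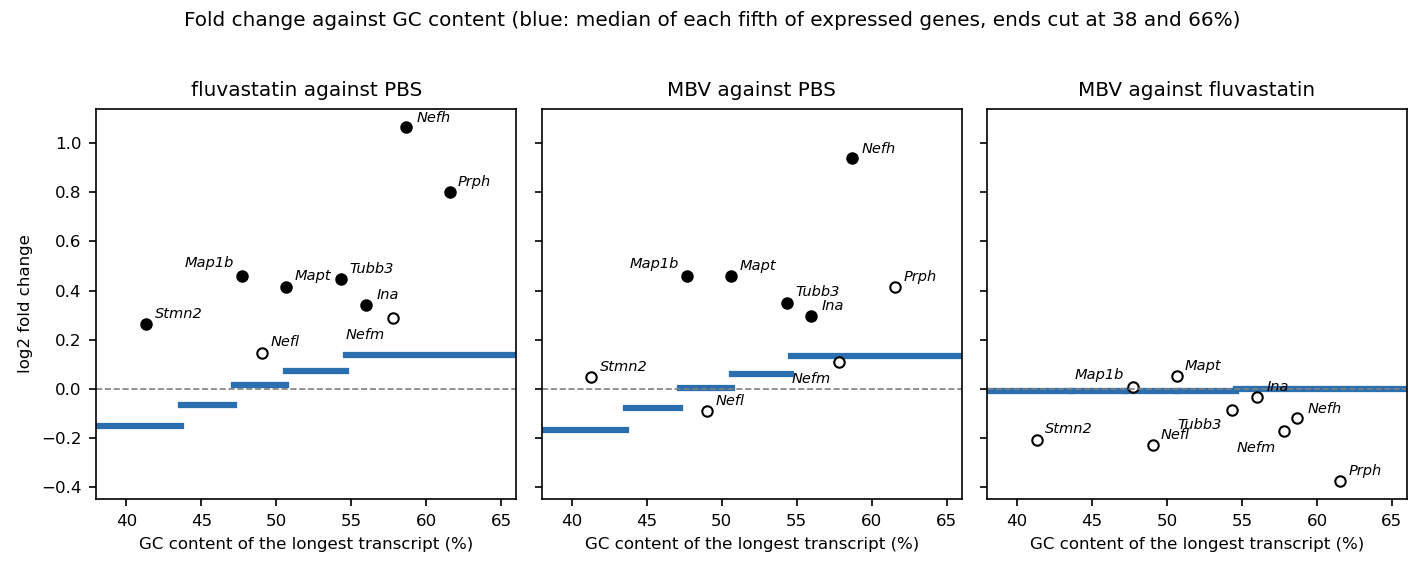
Log2 fold change of the 9 genes (circles, filled where the FDR was under 0.05) against the GC content of their longest transcript in %, with the median of all expressed genes in 5 equal groups by GC content as blue lines. In both comparisons with PBS the blue lines climb from left to right, from -0.15 to 0.14 with fluvastatin and from -0.17 to 0.13 with MBV, and Nefh, Map1b and Mapt lie well above them. Between MBV and fluvastatin the lines are flat at about 0.

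The 9 genes covered much of that range of composition. Stmn2 had the lowest GC content, 41.3%, and fell in the lowest of the 5 groups. Map1b (47.7%), Nefl (49.0%) and Mapt (50.6%) lay in the middle group, whose median change was 0.02 with fluvastatin and 0.00 with MBV. Tubb3 (54.3%), Ina (56.0%), Nefm (57.8%), Nefh (58.7%) and Prph (61.6%) lay in the upper 2 groups. For these 5 genes the GC correction lowered the log2 fold change against PBS, and for Stmn2 it raised it.

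The sequences before the start of some of these genes were searched for short strings of letters. The RefSeq promoter table (build GRCm38.p6) holds 4 of the 9, Ina, Prph, Tubb3 and Map1b. Each was higher with fluvastatin, and of the 4 only Map1b kept that call with the GC correction. The 250 bases before each start are printed here, 5′ to 3′ on the strand of the gene. Each GGGCGG (on either strand, read as CCGCCC on the other) is in capitals.
Ina (chr19:47014431-47014680, plus strand): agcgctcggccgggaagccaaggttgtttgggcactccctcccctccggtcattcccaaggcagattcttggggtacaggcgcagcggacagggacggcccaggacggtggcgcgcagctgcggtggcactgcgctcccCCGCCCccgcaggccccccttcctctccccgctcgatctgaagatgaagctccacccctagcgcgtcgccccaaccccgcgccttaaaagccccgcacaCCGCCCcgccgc
Prph (chr15:99054924-99055173, plus strand): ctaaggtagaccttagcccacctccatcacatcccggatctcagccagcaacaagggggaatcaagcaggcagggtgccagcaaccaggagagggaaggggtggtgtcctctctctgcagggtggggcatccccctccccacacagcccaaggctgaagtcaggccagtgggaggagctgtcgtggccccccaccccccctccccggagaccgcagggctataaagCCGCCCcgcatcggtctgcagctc
Tubb3 (chr8:123411303-123411552, plus strand): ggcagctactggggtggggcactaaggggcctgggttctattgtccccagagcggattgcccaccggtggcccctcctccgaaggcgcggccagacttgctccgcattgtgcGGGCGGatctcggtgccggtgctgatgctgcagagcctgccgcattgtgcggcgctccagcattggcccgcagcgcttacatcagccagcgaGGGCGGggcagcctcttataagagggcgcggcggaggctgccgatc
Map1b (chr13:99516603-99516852, minus strand): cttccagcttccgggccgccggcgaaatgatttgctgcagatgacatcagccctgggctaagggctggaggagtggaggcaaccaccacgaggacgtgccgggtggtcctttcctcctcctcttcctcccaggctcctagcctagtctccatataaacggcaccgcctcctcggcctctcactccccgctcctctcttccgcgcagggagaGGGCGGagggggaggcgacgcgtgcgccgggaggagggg
All 4 hold GGGCGG, with 2 matches in Ina and Tubb3 and 1 in Prph and Map1b, and 32.7% of the 32851 windows of the same length in the table hold it. The letters TATAA, searched on both strands, occur in Prph, Tubb3 and Map1b and in 22.8% of all windows. The 4 windows were 65.2% to 70.8% GC, against a median of 52.4% over the table, so the shares over all windows are not matched to them in GC content. A match is a description of these letters, and binding was not measured.

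Of the neurofilament chains, Nefh (chromosome 11, 4888754 to 4898064 on the minus strand in GRCm39) encodes the heavy chain, whose long phosphorylated tail projects from the filament. Scaled by TMM, its level was 18.3, 17.4 and 22.6 CPM in the libraries given PBS, then 34.2, 45.0 and 42.9 in those given fluvastatin, and 35.6, 38.3 and 38.7 in those given MBV. Every library of both treatments lay above every PBS library, and the treated groups overlapped each other. The log2 fold change against PBS was 1.07 ± 0.12 (SE) with fluvastatin (edgeR FDR 0.000690) and 0.94 ± 0.09 with MBV (edgeR FDR 0.000531). The GC correction lowered these to 0.92 and 0.79, and both passed (edgeR FDR 0.00179 and 0.00105). The exons of Nefh share 861 bases with Ap1b1, an adaptor subunit gene on the opposite strand, and the counting strand is not given in the sources used here. Ap1b1 differed from PBS by 0.050 and 0.076 on the log2 scale and passed in neither comparison, and its PBS libraries held 239 to 254 CPM.

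Nefl (chromosome 14, 68321312 to 68326544, plus strand) encodes the light chain, the backbone on which the other chains assemble. Its level was 347, 306 and 364 CPM with PBS, 314, 424 and 390 with fluvastatin, and 292, 312 and 357 with MBV. The 3 groups overlapped. Nefl had a log2 fold change of 0.15 with fluvastatin (95% interval -0.07 to 0.36, edgeR FDR 0.336) and -0.091 with MBV (-0.27 to 0.091, edgeR FDR 0.455), so an increase above 1.29-fold with fluvastatin or above 1.07-fold with MBV lay outside the interval. Nefm, the medium chain, neighbours Nefl on chromosome 14 on the opposite strand, and their exons share 1152 bases. It measured 62.6, 60.0 and 69.3 CPM with PBS, 64.7, 95.4 and 74.1 with fluvastatin, and 59.3, 67.0 and 81.9 with MBV. Fluvastatin replicate 2 was the highest library for both Nefl and Nefm. For Nefm the log2 fold change was 0.29 with fluvastatin (95% interval 0.03 to 0.55, edgeR FDR 0.117) and 0.11 with MBV (-0.13 to 0.35, edgeR FDR 0.4996), and with the GC correction 0.15 and -0.035.

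Ina (chromosome 19, 47003137 to 47013766, plus strand) encodes alpha-internexin, which joins the neurofilament chains in central axons. Its level was 84.6, 75.5 and 91.2 CPM with PBS, 92.5, 121 and 105 with fluvastatin, and 104, 106 and 101 with MBV. No treated library lay below a PBS library, and the gap between the highest PBS library and fluvastatin replicate 1 was small. Ina changed on the log2 scale by 0.34 ± 0.09 with fluvastatin (edgeR FDR 0.0277) and 0.30 ± 0.06 with MBV (edgeR FDR 0.00964). Both calls were lost with the GC correction, where the changes were 0.23 and 0.18 (edgeR FDR 0.147 and 0.0625). Ina shares 526 exonic bases with Nt5c2 on the opposite strand, a nucleotidase gene that was -0.14 and -0.077 against PBS on the log2 scale and passed in neither.

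Prph (chromosome 15, 98953055 to 98956859, plus strand) encodes peripherin, the filament protein of peripheral neurons and of some central neurons with long projections. It was the least abundant of the 9, with 66 to 171 counts in a library. Its level was 3.28, 2.25 and 4.37 CPM with PBS, 4.12, 5.83 and 7.25 with fluvastatin, and 3.84, 5.02 and 4.41 with MBV. Both treated groups overlapped the PBS libraries. The log2 fold change was 0.80 ± 0.25 with fluvastatin, which passed narrowly (edgeR FDR 0.0474) and no longer did with the GC correction (0.63, edgeR FDR 0.122). With MBV it was 0.41 (95% interval -0.10 to 0.93, edgeR FDR 0.224).

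**Figure D2:**
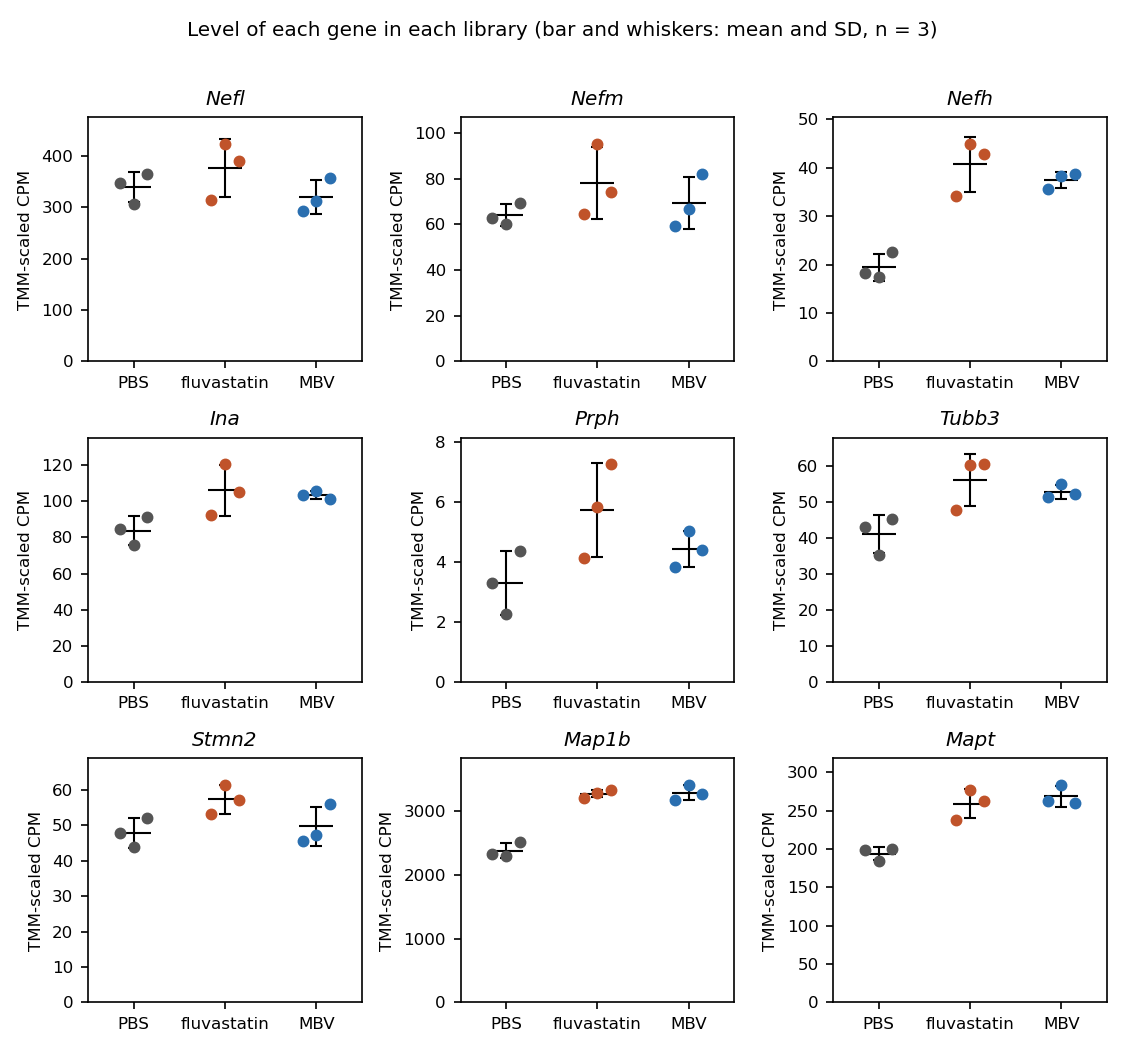
TMM-scaled level (CPM) of each of the 9 genes in each library with PBS, fluvastatin and MBV; each point is a library, and the bar with whiskers is the mean and SD of 3. The treated libraries of Nefh, Map1b and Mapt all lie above the PBS libraries, and for Nefl and Nefm the treated and PBS libraries overlap.

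Among the microtubule genes, Map1b (chromosome 13, 99557954 to 99653048, minus strand) encodes a microtubule-associated protein of growing axons. It had by far the highest level of the 9, at 2334, 2292 and 2512 CPM with PBS, 3213, 3285 and 3332 with fluvastatin, and 3178, 3418 and 3276 with MBV. The treated libraries were all above the PBS libraries, by more than the spread within any group. The log2 fold change was 0.46 ± 0.05 with fluvastatin (edgeR FDR 0.000676) and 0.46 ± 0.05 with MBV (edgeR FDR 0.000773), and with the GC correction it was 0.47 and 0.49. Mapt (chromosome 11, 104122216 to 104222916, plus strand) encodes tau, which binds along axonal microtubules. It stood at 198, 184 and 200 CPM with PBS, 238, 277 and 263 with fluvastatin, and 262, 284 and 260 with MBV, again without overlap between PBS and either treatment. Its log2 fold change was 0.42 ± 0.06 with fluvastatin (edgeR FDR 0.00154) and 0.46 ± 0.05 with MBV (edgeR FDR 0.000633), and 0.39 and 0.44 with the GC correction.

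Tubb3 (chromosome 8, 124138163 to 124148754, plus strand) encodes the neuronal class III beta-tubulin, a subunit of the microtubules themselves. It measured 43.0, 35.2 and 45.3 CPM with PBS, 47.6, 60.2 and 60.5 with fluvastatin, and 51.3, 55.0 and 52.1 with MBV. All treated libraries were above all PBS libraries. Against PBS it was higher by 0.45 ± 0.11 on the log2 scale with fluvastatin (edgeR FDR 0.0158) and 0.35 ± 0.09 with MBV (edgeR FDR 0.0160). Under the GC correction the first no longer passed (0.36, edgeR FDR 0.0588), and the second stood at the threshold (0.26, edgeR FDR 0.0499).

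Stmn2 (chromosome 3, 8574420 to 8626666, plus strand) encodes stathmin-2, a tubulin-binding protein of growth cones. Its level was 47.7, 43.8 and 52.0 CPM with PBS, 53.3, 61.5 and 57.3 with fluvastatin, and 45.7, 47.3 and 56.1 with MBV. The fluvastatin libraries lay above the PBS libraries, whereas the MBV libraries overlapped them. On the log2 scale the difference from PBS was 0.26 ± 0.073 with fluvastatin (edgeR FDR 0.0294) and 0.046 ± 0.087 with MBV (edgeR FDR 0.730). Both were larger after the GC correction, 0.41 with fluvastatin (edgeR FDR 0.00890) and 0.22 with MBV (edgeR FDR 0.128).

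**Figure D3:**
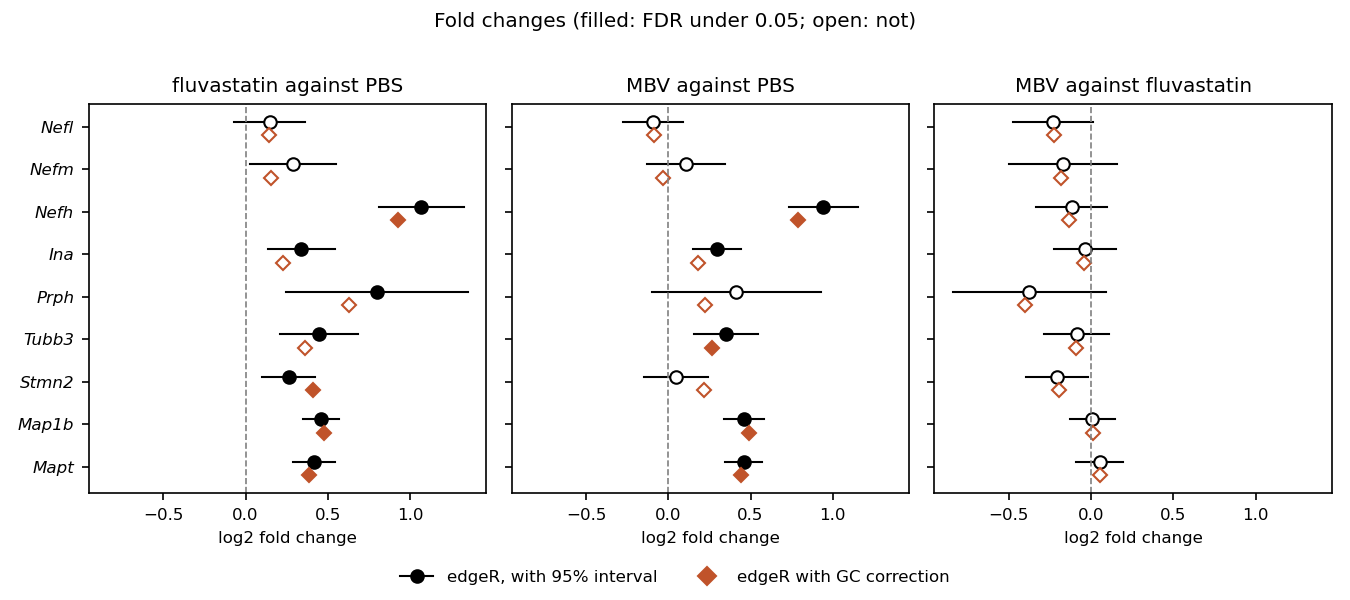
Log2 fold change of the 9 genes in the 3 comparisons, from edgeR with its 95% interval (circles) and with the GC correction (diamonds); filled symbols have an FDR under 0.05. Nefh, Map1b and Mapt are filled under both fits in both comparisons with PBS, and every symbol between MBV and fluvastatin is open.

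As a group the 9 genes had a median log2 fold change of 0.42 with fluvastatin and 0.35 with MBV, where the median of all genes was -0.01 and 0.01. After the GC correction the median of the 9 was 0.39 and 0.23. Both comparisons use the same 3 PBS libraries, so they are not independent of each other. The groups did not overlap for 6 of the 9 genes with fluvastatin, against 36.6% of all genes, and for 5 of the 9 with MBV, against 41.3%.

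In the comparison of MBV with fluvastatin, whose libraries belong to 1 run of library numbers, no gene of the 9 passed edgeR's test, and none passed DESeq2's. At an unadjusted p under 0.05 there was 1, Stmn2, with a log2 fold change of -0.21 (95% interval -0.40 to -0.02, edgeR FDR 0.437). The groups overlapped for all 9, against 16.4% of all genes without overlap. The median log2 fold change of the 9 was -0.12, from -0.38 (Prph, 95% interval -0.84 to 0.09) to 0.05 (Mapt, -0.09 to 0.20). For Map1b it was 0.01 (-0.13 to 0.14), so differences beyond 1.10-fold lay outside its interval. For Nefl it was -0.23 (-0.47 to 0.01) and for Nefh -0.12 (-0.33 to 0.10).

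The calls with fluvastatin depended on single libraries more than those with MBV. Without PBS replicate 1 or PBS replicate 2, 4 of the 9 genes passed with fluvastatin (Nefh, Tubb3, Map1b and Mapt). Without fluvastatin replicate 2 or fluvastatin replicate 3, 3 passed (Nefh, Map1b and Mapt), and without fluvastatin replicate 1 all 9 passed. Fluvastatin replicate 1 was below its group's mean for 9 of the 9 genes and fluvastatin replicate 2 above it for 9, on the log2 scale. PBS replicate 2 was likewise below its group's mean for all 9 and PBS replicate 3 above it for all 9. With MBV, Nefh, Ina, Tubb3, Map1b and Mapt passed whichever library was left out. When edgeR's statistics were divided by their inflation over all genes, which was 4.26 for fluvastatin and 5.45 for MBV, no gene of the 9 passed in either, and none of all genes did.

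Relative to each other the genes were compared per kilobase of longest transcript, on the scale of CPM per kb. With PBS the order was Map1b (200 ± 9.83, SD, n = 3), Nefl (99.0 ± 8.68), Mapt (28.9 ± 1.26), Ina (25.3 ± 2.38), Nefm (17.3 ± 1.30), Stmn2 (14.0 ± 1.21), Tubb3 (12.8 ± 1.66), Nefh (4.77 ± 0.683) and Prph (1.61 ± 0.517). The PBS libraries of Mapt and Ina overlapped, as did those of Stmn2 and Tubb3. With both treatments Tubb3 stood above Stmn2 in the mean, and the rest of the order was as with PBS. With the length of all exons of a gene in place of its longest transcript, Ina ranked above Mapt and Tubb3 above Nefm in all 3 groups, and Nefh above Stmn2 in both treated groups.

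The 5 intermediate filament genes were also compared by their share of the total. Of the summed level per kb of Nefl, Nefm, Nefh, Ina and Prph, Nefh made up 3.21% ± 0.234 of the total in PBS retinas (SD, n = 3), 5.69% ± 0.169 after fluvastatin and 5.96% ± 0.282 after MBV. Nefl made up 66.9% ± 0.633, 62.4% ± 0.761 and 60.3% ± 1.29, and Ina 17.1% ± 0.0823, 18.3% ± 0.635 and 20.3% ± 1.91. The share of Nefm stayed between 11.2% and 13.1% in every library.

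In raw counts, which need no scaling between libraries, there were 5.72 ± 0.469 Nefh counts for every 100 Nefl counts with PBS, 10.8 ± 0.207 with fluvastatin and 11.8 ± 0.799 with MBV. The lowest treated library, at 10.6, stood above the highest PBS library, at 6.21. The two-sided exact permutation test gave p = 0.1 for each treatment against PBS, the smallest that 3 against 3 allows, and 0.16 after Benjamini-Hochberg adjustment over the 24 ratios computed. Since Nefh has the higher GC content, 58.7% against 49.0% for Nefl, the ratio of Nefh to Nefl also moves with the GC trend. With the trend removed, the log2 fold changes were 0.92 for Nefh and 0.14 for Nefl with fluvastatin, and 0.79 and -0.085 with MBV.

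**Figure D4:**
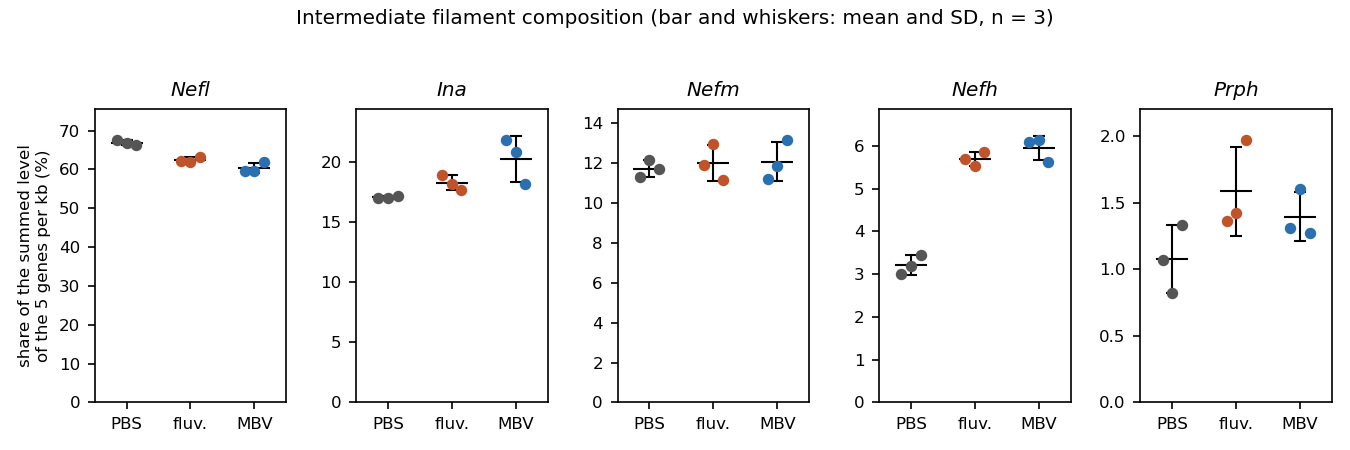
Share (%) of each of the 5 intermediate filament genes in their summed level per kb, by library, with PBS, fluvastatin (fluv.) and MBV; the bar with whiskers is the mean and SD of 3. Nefh climbs from 3.21% with PBS to 5.69% and 5.96% and Nefl declines from 66.9% to 62.4% and 60.3%, with no overlap between PBS and either treatment.

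Correlations over the 9 libraries are given as a description, since the libraries share groups and depth and the group means differ. On the log2 scale Pearson's r between pairs of the 9 genes ran from 0.16 (Nefl and Map1b) to 0.98 (Nefh and Map1b). It was 0.86 for Nefl and Nefm, 0.90 for Nefm and Stmn2, 0.96 for Ina and Tubb3 and 0.33 for Nefl and Nefh. With the group means removed all pairs lay between 0.40 (Stmn2 and Mapt) and 0.94 (Prph and Tubb3), with 0.51 for Nefl and Map1b and 0.86 for Nefl and Nefh. The correlations with other genes were taken over the groups together. Among 10204 genes with a mean of at least 10 CPM, the gene most like Nefl was Pcsk1 (r = 0.99), a prohormone convertase, followed by Uchl1, a neuronal ubiquitin hydrolase, and Spryd3. Nefm was most like Calm3, a calmodulin gene (r = 0.98), then Chat and Elavl4. The pattern of Nefh was closest to Cux1, Ttbk1 and Cdk16, that of Mapt to Kctd17, Cacna2d2 and Gm42372, and that of Map1b to Stac2, Fgf11 and Bsn. The genes closest to Tubb3 (Astn1, Cmip and Cnnm1), Ina (Entpd4, Sobp and Cygb), Prph (Rbpms2, Rusc1 and Hsp90ab1) and Stmn2 (Myl12b and AI593442) had r of 0.95 to 0.98.

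The level of the 9 genes was set beside markers of the cells that could carry them. The summed level of 15 RGC markers was 463 to 548 CPM with PBS, 531 to 616 with fluvastatin and 464 to 555 with MBV. With fluvastatin 4 of the 15 were higher and 0 lower, namely Rbpms2, Sncg, Thy1 and Nrn1, and with the GC correction 2, Sncg and Nrn1. With MBV Chrna6 was higher and Isl1 and Penk were lower (these marker names were chosen after their values were seen). In either direction, 10 of the 15 had an unadjusted p under 0.05 with fluvastatin and 5 with MBV. DESeq2 called 6 and 4 of them. The median log2 fold change of the 15 was 0.29 and 0.17, and 0.27 and 0.08 with the GC correction. The 7 horizontal cell markers summed to 777 to 868 CPM with PBS, 808 to 859 with fluvastatin and 793 to 902 with MBV, and none passed in edgeR, with 2 at an unadjusted p under 0.05 in each comparison and 1 and 0 passing in DESeq2. With the GC correction Tfap2b passed in each, at 0.23 and 0.20 on the log2 scale. Of 8 amacrine cell markers 3 were higher with fluvastatin (Slc6a9, Tfap2a and Slc18a3) and Slc6a9 with MBV. With the GC correction Tfap2a alone passed with fluvastatin and none with MBV. Of 8 Müller glia markers 6 were lower with fluvastatin (3 with the GC correction and 3 in DESeq2) and 3 with MBV (4 with the GC correction), and none was higher. Of 8 rod markers 2 were lower and 1, Nr2e3, higher with fluvastatin (3 and 1 with the GC correction), and 5 were lower with MBV (4 with the GC correction). The pigment epithelium list had 3 of 6 lower in each, Tyrp1, Pmel and Mlana. Lrat (0.80 and 0.67 on the log2 scale), Rpe65 (0.51 and 0.36) and Best1 (-0.13 and -0.44) did not pass. With the GC correction the same 3 were lower in each, and Lrat was higher with fluvastatin (0.94, edgeR FDR 0.0402). Lens markers summed to 1.90 to 5.72 CPM with PBS, 2.63 to 17.5 with fluvastatin and 49.1 to 127 with MBV, and 5 of 6 were higher with MBV and 1 lower with fluvastatin. With the GC correction 4 lens markers were higher with MBV. Of the other lists, bipolar cell markers had 2 and 3 of 8 lower, and 1 of the 3 with MBV was Isl1, which is also on the RGC list. Cone markers had 1 of 7 higher with fluvastatin and 2 lower with MBV, and microglia 1 of 6 lower in each. Neutrophils had 1 higher and 1 lower of 6 with fluvastatin and 1 higher with MBV, and red blood cells 1 and 2 of 3 higher. With the GC correction no cone marker was lower with MBV, and microglia had 1 lower with fluvastatin and 0 with MBV. No neutrophil marker passed with fluvastatin in that fit. With MBV 3 of 6 oligodendrocyte markers (1 in DESeq2) and 1 of 5 endothelial markers were higher, with 0 called by edgeR with fluvastatin (0 and 3 at an unadjusted p under 0.05, 0 and 1 in DESeq2), and none of the 11 passed between MBV and fluvastatin in edgeR, where 1, an oligodendrocyte marker, had an unadjusted p under 0.05 and 1 passed in DESeq2. Astrocyte, monocyte, pericyte and Schwann cell markers had none that passed in edgeR in either. At an unadjusted p under 0.05 these 4 lists held at most 2 genes each with fluvastatin and at most 3 with MBV, and DESeq2 called 1 monocyte marker with MBV. The counts of markers that passed stand against 30.5% of genes with a mean of at least 10 CPM that passed with fluvastatin (14.9% higher and 15.5% lower) and 39.4% with MBV (17.6% higher and 21.8% lower), so 1 or 2 of 6 to 8 markers is near the background. Most neutrophil, monocyte, lens, red blood cell and Schwann cell markers lay below 10 CPM, and this background is not matched to their level. The part of the marker shifts in the levels of the 9 genes was not tested.

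A further 125 genes of the cytoskeleton and its partners were sorted by role, and they include nuclear lamins and glial filament genes, which are not axonal. Of the 125, 39 were higher and 6 lower with fluvastatin and 41 higher and 7 lower with MBV. None passed between MBV and fluvastatin (edgeR, with 13 at an unadjusted p under 0.05 and 0 passing in DESeq2). Over all genes 9.36% and 12% were higher, and among genes with a mean of at least 10 CPM 14.9% and 17.6%. The median log2 fold change of the 125 was 0.14 and 0.12, smaller than that of the 9 genes. The GC correction left 27 higher and 3 lower with fluvastatin and 27 higher and 8 lower with MBV. In each list the genes named are those with the smallest FDR, up to 3 a comparison.

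Of 13 other intermediate filament genes and their linkers, 3 were higher and 1, Lmnb1 at -0.23, lower with fluvastatin and 5 were higher with MBV, and the GC correction left these counts as they were. Nes (nestin), the filament gene of progenitors and reactive glia, had the largest change, a log2 fold change of 2.13 ± 0.39 with fluvastatin and 2.22 ± 0.45 with MBV, from 10.4 ± 2.76 CPM with PBS to 45.6 ± 25.9 and 48.8 ± 29.6. Dst (dystonin), which links filaments to the other networks, rose by 0.38 and 0.44.

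Of 13 other tubulin genes, 1 was higher with fluvastatin, Tubb4a at 0.20, and 3 with MBV, Tubb2b at 0.76, Tuba1a at 0.18 and Tuba8 at 0.31 on the log2 scale, and 1 of 13 is no more than the share of all genes that were higher with fluvastatin. With the GC correction Tubb2b alone of these 4 passed, and Tuba1b was lower with fluvastatin, at -0.15. Among 11 stathmins, collapsin response mediator proteins and doublecortins, the relatives of Stmn2 and its partners, 3 were higher with fluvastatin (Dpysl5 at 0.29, Stmn4 at 0.45 and Stmn1 at 0.28). With MBV 4 were higher and 1, Stmn3 at -0.20, lower, and Dclk2 at 0.29, Crmp1 at 0.21 and Dpysl5 at 0.21 led them. The GC correction ended the calls of Stmn1 with fluvastatin and of Crmp1, Dpysl5 and Stmn1 with MBV, and with it Dcx, the doublecortin gene, was higher by 0.39 and 0.38. Lmnb1, Tuba1b, Stmn3 and Dcx were named after their values were seen.

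Of 29 other microtubule-associated or microtubule-modifying genes, which include the relatives of Map1b and Mapt, 8 were higher and 2 lower with fluvastatin and 6 higher and 2 lower with MBV. The 6 of 29 with MBV is near the 17.6% higher among genes with a mean of at least 10 CPM. The median log2 fold change of the 29 was 0.03 and 0.02. With the GC correction 7 were higher and 1 lower with fluvastatin, and 4 higher and 3 lower with MBV. Map7d1 rose by 0.51 and 0.58 and Vash1, a tubulin carboxypeptidase, by 0.44 and 0.43, and both passed with the GC correction. Map6, which stabilises microtubules, rose by 0.31 with fluvastatin and 0.22 with MBV. With the GC correction its edgeR FDR was 0.05002 with fluvastatin, just over the threshold, and 0.284 with MBV. Tbca, a tubulin-folding cofactor, was lower in both, at -0.32 with fluvastatin and -0.53 with MBV on the log2 scale, and passed with the GC correction.

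Of 19 axonal transport genes, 8 were higher with fluvastatin and 8 higher with 1 lower with MBV, and 3 and 5 were higher with the GC correction. Kif1a, a kinesin of synaptic vesicle precursors, rose by 0.25 and 0.26 and kept passing. Mapk8ip3, an adaptor of the motors, rose by 0.34 and 0.23, Dctn1 (dynactin) by 0.22 and 0.20 and Dync1h1 (the dynein heavy chain) by 0.28 and 0.29. Of these Dync1h1 alone passed with the correction, in both comparisons. Among 20 genes of the axonal membrane skeleton, 9 were higher and 1 lower in each comparison. With the GC correction 8 were higher and 0 lower with fluvastatin, and 6 higher and 1 lower with MBV. Ank3 (ankyrin-G, which anchors the axon initial segment) rose by 0.30 and 0.45, Ank2 by 0.28 and 0.31 and Nfasc (neurofascin) by 0.33 and 0.48, and all passed with the correction.

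Of 20 kinases and turnover factors of neurofilaments and tau, 7 were higher and 2 lower with fluvastatin and 6 higher and 2 lower with MBV. With the GC correction 3 were higher and 0 lower with fluvastatin, and 4 higher and 3 lower with MBV. The median log2 fold change of the 20 was then 0.03 and 0.08. Mark4, a kinase that phosphorylates tau and its relatives, rose by 0.34 and 0.42 and passed with the correction. Cdk5r2, an activator of the neurofilament kinase Cdk5, rose by 0.38 and 0.41 and Mark2 by 0.18 and 0.22. Mapk8 (JNK1) was lower in both, at -0.26 and -0.17. The calls of Cdk5r2, Mark2 and Mapk8 ended with the correction.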

How the data were processed

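Per the study's methods and the labels, RNA was extracted from whole retinas with TRIzol, libraries were made with the TruSeq Total RNA kit and sequenced on a NextSeq500 as 75-base paired-end reads. Per the submitters' processing notes, reads were mapped to GRCm39 with CLC Genomics Workbench 22.0.2. The counting strand and annotation are not given in the sources used here. The values are raw counts per gene as deposited by the authors, in 4 tables of 25655 genes, each for a pair of groups. Columns that repeat a library were identical. The table for the combined treatment has 6 count columns that name no library, which were not used, and the authors' own fold changes and p-values were not used.

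Counts were compared with edgeR 4.0.16 in R 4.3.3 (TMM, quasi-likelihood test, fit of the pair of groups alone, genes counted in 1 or more of the 6 libraries, Benjamini-Hochberg adjustment over all genes). CPM were scaled by TMM over the 9 libraries, and log2 values have 0.5 CPM added. Depth came to 26325065 to 30992040 counts per library with PBS, 23634662 to 27098889 with fluvastatin and 21349516 to 26738043 with MBV. The coefficient of variation between replicates was 7.78% to 10.1%. Standard errors of log2 fold changes were taken from the F statistic. For the GC correction, a natural spline of each library's log2 level against the GC content of the longest transcript (GENCODE, GRCm39), fitted on genes of at least 10 CPM, was used as an offset. The procedures were tested on simulated counts. DESeq2 1.42.0 and other scalings, filters, fits and thresholds were tried as alternatives. Ratios and levels were computed in Python 3.11.15 with scipy 1.17.1.

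The 9 genes, the 7 lists of 125 related genes, the 18 marker lists and the tests were chosen with earlier results of these data known, and the GC corrections and the division by the inflation after these data were seen. The genes named are the 9, the 3 of smallest FDR in each list and comparison among those that passed, and for each of the 9 the 3 genes of highest correlation, of which some are not reported here. The labels do not say whether replicates are separate animals, so p-values measure the spread between these samples.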

Additional observations from a re-analysis of the deposited data

How the results depend on the processing

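With fluvastatin, the number of the 9 genes that passed was 7 with DESeq2, with RLE or upper-quartile factors and at an FDR under 0.1, and 6 with a minimum of 10 counts in 2 libraries or in 1 fit of all libraries. It was 4 with the GC correction and with the GC and length correction, 3 to 9 when a library was left out, 1 with a fold change of at least 2 required, and 0 after division by the inflation. With MBV it was 5 under all of these planned settings and whichever library was left out (5 to 5), except that a fold of at least 2 left 0. It was 4 with the GC correction, 5 with the GC and length correction and 0 after division by the inflation. Between MBV and fluvastatin it was 0 throughout. Nefh, Map1b and Mapt passed against PBS in both treatments under every alternative except the fold minimum, which left Nefh with fluvastatin, and the division by the inflation. The cause of the lost calls was not tested.

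The replicate numbers of the labels did not pair the samples, since correlations of same-numbered libraries' deviations ran from -0.56 to 0.31. When each of the 9 libraries was set against both other groups, the best match had its own number in 3 of 18 comparisons. With the replicate block 7, 5 and 0 of the 9 genes passed, with 3727, 3876 and 0 of all genes. With the GC correction and the replicate block together it was 4 with fluvastatin and 3 with MBV.

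The direction changed only for genes that had not passed. Against PBS with MBV, the log2 fold change of Nefm was -0.035 with the GC correction, -0.025 with GC and length, -0.045 with the GC correction and the replicate block, and -0.030 (without MBV replicate 3) to 0.21 when a library was left out. That of Stmn2 was -0.051 (without MBV replicate 3) to 0.11, and also below 0 without PBS replicate 2. Between MBV and fluvastatin, Map1b was -0.031 with GC and length and -0.022 (without MBV replicate 2) to 0.031 when a library was left out, and also below 0 without fluvastatin replicate 1. Mapt was -0.0057 (without fluvastatin replicate 1) to 0.10 and Ina -0.12 to 0.067 (without fluvastatin replicate 2). Depth limits Prph, at 66 to 171 counts.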
